A study of Rattus norvegicus with 6 samples.

Results

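The 10 genes described here, Mfn1, Mfn2, Opa1, Dnm1l, Fis1, Mff, Pink1, Bnip3, Bnip3l and Fundc1, encode proteins that fuse mitochondria, divide them or mark them for removal. They were chosen by name for these roles, with earlier results of these data known. They make up 10 of the 32623 genes of the table and 10 of the 13964 genes with enough expression to be tested. Their RNA was measured by RNA sequencing of total RNA from myocardial tissue of wild-type male rats. All rats were anesthetized, ventilated and opened by left thoracotomy. The 3 ischemia rats had the left anterior descending coronary artery, which feeds the front wall of the left ventricle, tied for 30 min, a model of acute myocardial infarction. The 3 sham rats are labelled with the same time of 30 min and no ligation is described for them. Strain, age and the sampled region of the heart are not given in the sources used here. The labels number the samples 1 to 3 in each group as separate samples and do not say whether animals were pooled, so the p-values measure the spread between these samples.

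Mitochondria of the heart form a network that is remodelled by opposing reactions. Outer membranes fuse through the mitofusins Mfn1 and Mfn2 and inner membranes through the GTPase Opa1, whereas the dynamin-related GTPase Dnm1l is recruited by adaptors such as Mff and Fis1 to constrict and divide the organelle. Damaged mitochondria are removed by mitophagy, either after the kinase Pink1 has labelled them for the ubiquitin ligase Parkin, or through receptors in the outer membrane, Bnip3, Bnip3l and Fundc1, that bind the autophagosome directly. Bnip3 is a known target of hypoxia-inducible factors, which bind DNA at the core letters ACGTG or GCGTG.

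Since ischemia deprives tissue of oxygen, the stretch of 250 bases before the start of transcription was searched for these core letters on both strands. A sequence was at hand for 7 of the 10 genes, from RefSeq on the rat assembly GRCr8, and Mfn2, Bnip3l and Fundc1 were not among them. The 4 genes with either core are shown, each on its coding strand, with the matches in capitals (CACGT and CACGC are the same cores read on the other strand). The windows lie at chr1:203154963-203155212 on the minus strand for Bnip3, chr5:155825951-155826200 on the minus strand for Pink1, chr11:84689901-84690150 on the minus strand for Opa1 and chr9:91455681-91455930 on the plus strand for Mff.
Bnip3: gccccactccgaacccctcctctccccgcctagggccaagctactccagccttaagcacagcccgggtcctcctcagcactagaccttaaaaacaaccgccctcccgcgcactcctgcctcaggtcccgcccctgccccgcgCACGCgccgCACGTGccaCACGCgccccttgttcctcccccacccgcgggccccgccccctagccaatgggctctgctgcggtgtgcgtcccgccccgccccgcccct
Pink1: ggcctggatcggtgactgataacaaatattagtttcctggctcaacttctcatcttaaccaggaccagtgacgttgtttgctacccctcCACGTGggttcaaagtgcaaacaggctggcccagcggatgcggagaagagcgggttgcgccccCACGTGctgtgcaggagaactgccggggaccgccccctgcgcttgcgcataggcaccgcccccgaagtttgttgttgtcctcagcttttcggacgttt
Opa1: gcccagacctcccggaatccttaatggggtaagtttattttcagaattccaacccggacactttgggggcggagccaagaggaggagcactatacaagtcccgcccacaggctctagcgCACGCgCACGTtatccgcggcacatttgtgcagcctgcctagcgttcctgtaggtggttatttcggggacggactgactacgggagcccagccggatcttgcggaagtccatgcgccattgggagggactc
Mff: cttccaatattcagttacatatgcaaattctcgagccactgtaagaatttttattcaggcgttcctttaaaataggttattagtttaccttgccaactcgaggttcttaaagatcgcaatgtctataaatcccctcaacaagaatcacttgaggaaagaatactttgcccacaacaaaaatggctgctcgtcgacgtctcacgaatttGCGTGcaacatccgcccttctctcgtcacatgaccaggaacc
In Bnip3 the palindrome CACGTG, which holds ACGTG on both strands, began 99 bases before the start and was flanked by a GCGTG match on either side. Pink1 held CACGTG at 161 and at 98 bases before the start. Opa1 held 1 match to each core on the strand opposite to the coding strand, and Mff held 1 match to GCGTG on the coding strand. Among 33469 windows of this length, ACGTG was found in 16.6%, GCGTG in 25.9% and CACGTG in 5.59%. Of the other motifs searched on both strands, GTAAACA, the core bound by FoxO factors, matched in Dnm1l and is found in 3.21% of windows, and AAGGTCA, bound by estrogen-related receptors, matched in none of the 7 genes and is found in 3.99% of windows. The windows of Mfn1 and Fis1 held none of the 5 motifs. A match shows only that the letters are present.

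Expression levels are given as FPKM, reads relative to the length of the gene and the size of the library, which allows genes to be compared. In sham myocardium the order of mean levels was Pink1, Bnip3, Fis1, Mff, Mfn2, Mfn1, Opa1, Bnip3l, Fundc1 and Dnm1l, from 387 FPKM down to 9.99 FPKM. Neighbours in this order had separate sham ranges at 3 places, between Pink1 and Bnip3, between Fis1 and Mff and between Mfn1 and Opa1, and overlapped elsewhere. Pink1 ranked between 144 and 698 of the tested genes across the 6 samples, and Dnm1l between 4194 and 7464. Pink1 alone made up between 26.4% and 60.2% of the FPKM summed over the 10 genes.

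**Figure D1:**
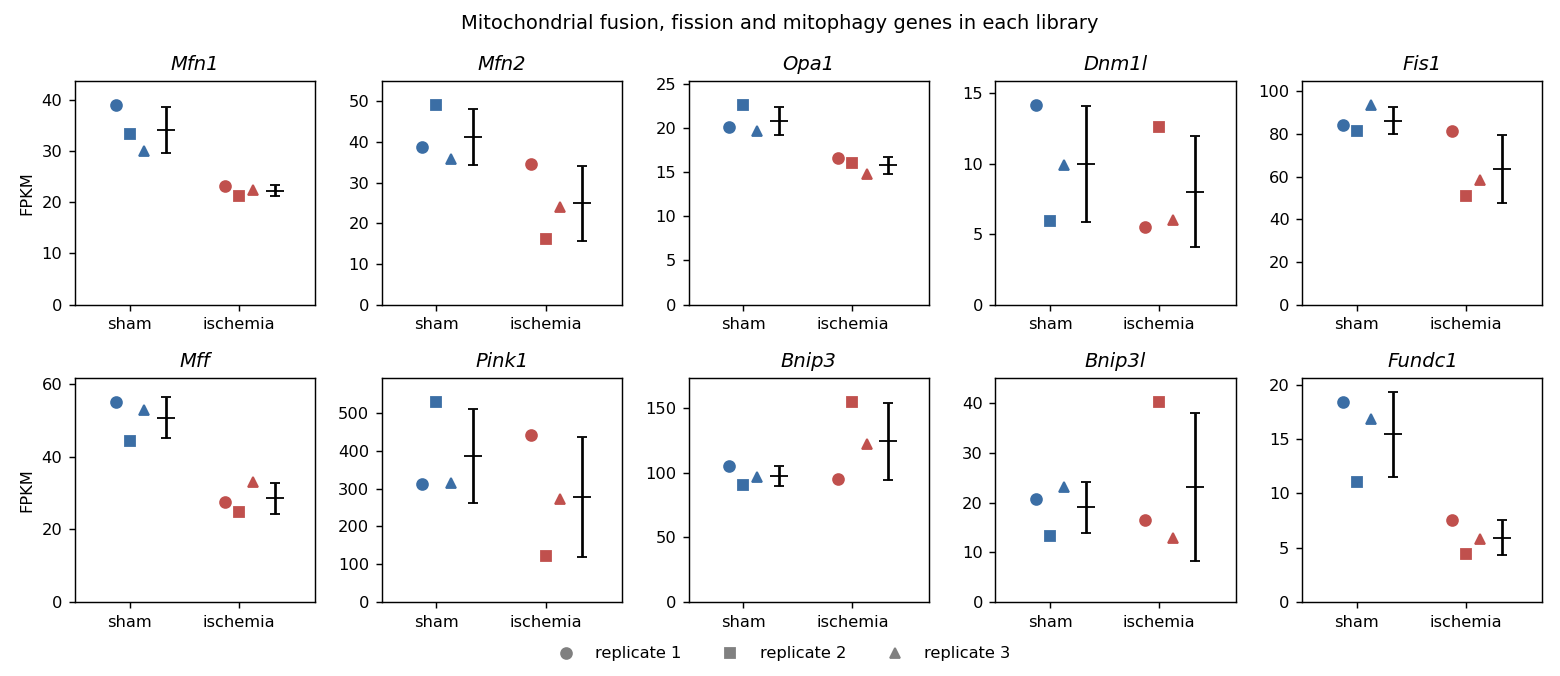
FPKM of each of the 10 genes in every sample, with points for single samples and bars for the mean of each group and its SD (n = 3). Mfn1, Mfn2, Opa1, Mff and Fundc1 have all ischemia points under all sham points. The groups of Fis1 touch, and the points of Dnm1l, Pink1, Bnip3 and Bnip3l intermingle.

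The main question was which of these transcripts differed between ischemic and sham myocardium. Fundc1 and Mff fell, at adjusted p-values of 0.0422 and 0.0496, and no gene of the 10 rose. By the same test 1.53% of all tested genes were called lower and 5.18% higher. At an unadjusted p under 0.05, 4 of the 10 were lower (Mfn1, Opa1, Mff and Fundc1) and 0 higher, against 14.2% and 18.2% of all tested genes. On counts scaled to library size, the groups did not overlap for 6 of the 10, all lower in ischemia, and for 19.1% of all tested genes in that direction and 22.0% in the other. These are Mfn1, Mfn2, Opa1, Fis1, Mff and Fundc1, and each of them reached 0.1 in an exact two-sided permutation test, which is the smallest p that 3 samples against 3 can give. Of the 10 log2 fold changes, 8 were below 0, with a median of -0.55, beside a median of -0.0015 over all tested genes. In bulk tissue, fewer cells of a type and less RNA per cell cannot be told apart.

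**Figure D2:**
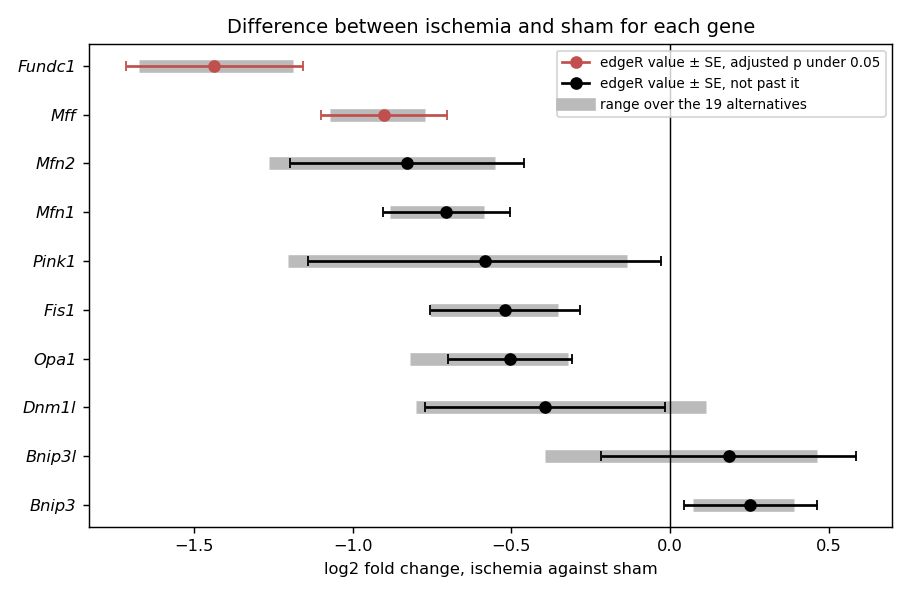
Log2 fold change of ischemia against sham for each of the 10 genes with its standard error, from the quasi-likelihood fit over all tested genes. Fundc1 lies lowest at -1.44 and Bnip3 highest at 0.25, and those past the adjusted threshold are Fundc1 and Mff.

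All 3 fusion genes had their ischemia samples under their sham samples, and none of the 3 passed the adjusted threshold. Mfn1 (ENSRNOG00000011057, chr2:118929738-118973698 as listed in the table, plus strand), a mitofusin of the outer membrane, measured 39.0, 33.4 and 29.9 FPKM in sham replicates 1 to 3 and 23.2, 21.2 and 22.4 FPKM in ischemia replicates 1 to 3. The ischemia samples of Mfn1 lay close together, at 22.3 ± 1.01 FPKM (SD, n = 3) against 34.1 ± 4.58 in sham. Its log2 fold change was -0.71 ± 0.20 (SE), with an adjusted p of 0.0774. This call depended on the tool, since DESeq2 gave Mfn1 an adjusted p of 0.00728, the only 1 of 19 alternatives in which it passed. DESeq2 also called more of all tested genes, 2071 higher and 1742 lower, against 723 and 214 by edgeR.

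Mfn2 (ENSRNOG00000046424, chr5:164684509-164714145, minus strand), the other mitofusin, which also tethers mitochondria to the endoplasmic reticulum, measured 38.9, 49.1 and 35.9 FPKM in sham and 34.6, 16.2 and 24.1 FPKM in ischemia. Ischemia replicate 1 nearly reached the lowest sham sample, and the ischemia samples spread more widely than those of Mfn1. Mfn2 had a log2 fold change of -0.83 ± 0.37 with an adjusted p of 0.175, and without sham replicate 2 it was -0.55. Opa1 (ENSRNOG00000001717, chr11:74720254-74793803, minus strand), which fuses inner membranes and shapes cristae, measured 20.1, 22.6 and 19.6 FPKM in sham and 16.6, 16.0 and 14.7 FPKM in ischemia. Both groups of Opa1 were tight and separate, at a small distance, with a log2 fold change of -0.50 ± 0.20 and an adjusted p of 0.137. Without sham replicate 2 the log2 fold change of Opa1 was -0.32.

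Of the fission genes, Mff fell, Fis1 did not pass the test and Dnm1l showed no separation. Mff (ENSRNOG00000015428, chr9:90880614-90908852, plus strand), the adaptor that recruits Dnm1l to the outer membrane, measured 55.0, 44.3 and 52.8 FPKM in sham and 27.6, 24.8 and 33.1 FPKM in ischemia. The highest ischemia sample of Mff stayed under the lowest sham sample, with means of 28.5 ± 4.24 and 50.7 ± 5.67 FPKM (SD, n = 3). Its log2 fold change was -0.90 ± 0.20, close to the threshold at an adjusted p of 0.0496. Without any 1 of the 6 samples the adjusted p of Mff lay above 0.05, between 0.0561 without ischemia replicate 1 and 0.172 without sham replicate 1. Its log2 fold change then lay between -1.07 and -0.77. Without any 1 of the sham samples, or without ischemia replicate 3, edgeR called 0 of all tested genes.

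Fis1 (ENSRNOG00000001420, chr12:22750485-22765308, minus strand), an outer membrane adaptor, measured 83.9, 81.1 and 93.5 FPKM in sham and 81.2, 51.1 and 58.4 FPKM in ischemia. Ischemia replicate 1 of Fis1 lay at the level of sham replicate 2 in FPKM, so that the groups touched on this scale, whereas on counts scaled by the trimmed mean of M-values they did not. Fis1 had a log2 fold change of -0.52 ± 0.24 with an adjusted p of 0.181. Dnm1l (ENSRNOG00000001813, chr11:88830957-88880198, plus strand), the GTPase that performs the constriction, measured 14.2, 5.90 and 9.90 FPKM in sham and 5.48, 12.6 and 6.00 FPKM in ischemia. Its samples of the 2 groups were interspersed, and ischemia replicate 2 was the second highest of all. For Dnm1l the log2 fold change was -0.39 ± 0.38 with an adjusted p of 0.488, and with 1 sample left out it ranged from -0.80 without ischemia replicate 2 to -0.11 without sham replicate 1.

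Pink1 (ENSRNOG00000015385, chr5:156677146-156689415, minus strand), the kinase that accumulates on damaged mitochondria, had the highest mean of the 10 transcripts in both groups, although Bnip3 exceeded it in ischemia replicate 2. It measured 314, 530 and 316 FPKM in sham and 442, 122 and 273 FPKM in ischemia. Both the highest and the lowest sample of Pink1 were numbered 2, in sham and in ischemia respectively, and ischemia replicate 1 exceeded 2 of the sham samples. The log2 fold change was -0.58 ± 0.56 with an adjusted p of 0.487, and an exact permutation test gave p = 0.4. Single samples moved this value, to -1.08 without ischemia replicate 1, -0.21 without ischemia replicate 2 and -0.14 without sham replicate 2.

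The 3 mitophagy receptors did not move together. Fundc1 (ENSRNOG00000003470, chrX:5549419-5566127, plus strand), a receptor that is controlled by phosphorylation in hypoxia, had the lowest log2 fold change of the 10 genes. It measured 18.4, 11.0 and 16.8 FPKM in sham and 7.57, 4.40 and 5.74 FPKM in ischemia, from 2819, 1797 and 2460 counts and 1257, 665 and 821 counts. The groups of Fundc1 were separate, with means of 15.4 ± 3.89 and 5.90 ± 1.59 FPKM (SD, n = 3). Its log2 fold change was -1.44 ± 0.28 with an adjusted p of 0.0422. The call on Fundc1 was lost without sham replicate 1 (adjusted p = 0.162), sham replicate 2 (0.0845), sham replicate 3 (0.140) or ischemia replicate 3 (0.138), and held without ischemia replicate 1 (0.0226) or 2 (0.0482). Its log2 fold change stayed between -1.67 and -1.23 in these 6 fits. In the 4 fits in which the call was lost, edgeR called 0 of all tested genes, and between 3020 and 3809 had an unadjusted p under 0.05.

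Bnip3 (ENSRNOG00000017243, chr1:211248098-211265282, minus strand), the receptor known as a hypoxia target, measured 105, 90.0 and 96.7 FPKM in sham and 95.3, 154 and 122 FPKM in ischemia. Ischemia replicates 2 and 3 of Bnip3 lay above every sham sample, and ischemia replicate 1 lay among the sham samples. The log2 fold change was 0.25 ± 0.21 with an adjusted p of 0.422. It ranged from 0.12 without ischemia replicate 2 to 0.39 without ischemia replicate 1, and was 0.07 with an atrial covariate. Bnip3l (ENSRNOG00000009820, chr15:43643897-43667029, minus strand), its close relative, measured 20.6, 13.3 and 23.2 FPKM in sham and 16.4, 40.2 and 12.9 FPKM in ischemia. Ischemia replicate 2 was far above the rest for Bnip3l and ischemia replicate 3 was the lowest of all 6. Bnip3l had a log2 fold change of 0.18 ± 0.40 with an adjusted p of 0.766, and without ischemia replicate 2 it turned to -0.40.

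When the genes were added up by role, the FPKM of the 3 fusion genes summed to 98.0, 105 and 85.4 in sham and 74.4, 53.4 and 61.2 in ischemia, and that of the 3 fission genes to 153, 131 and 156 in sham and 114, 88.5 and 97.6 in ischemia. Both sums were separate between the groups. The ratio of the fission sum to the fusion sum was 1.56, 1.25 and 1.83 in sham and 1.54, 1.66 and 1.59 in ischemia, so that the ischemia ratios lay within the sham range. The 3 receptors summed to 144, 114 and 137 FPKM in sham and 119, 199 and 141 FPKM in ischemia, which overlap. Within the receptor sum Fundc1 held 12.7%, 9.64% and 12.3% in sham and 6.35%, 2.21% and 4.07% in ischemia, and Bnip3 held between 70.7% and 86.8% in all samples.

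**Figure D3:**
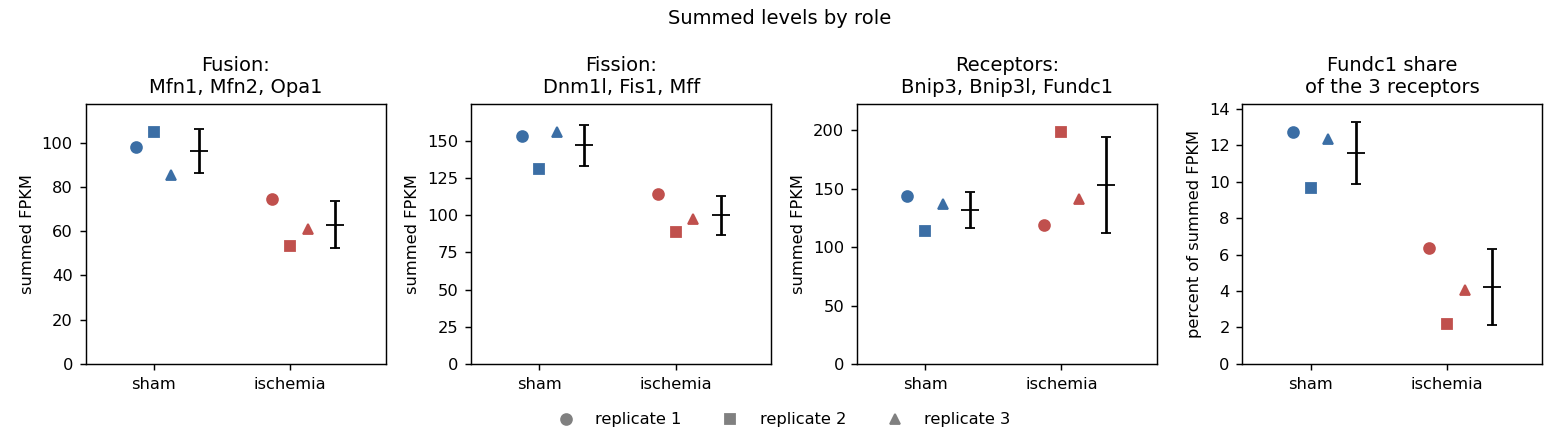
FPKM summed over the fusion genes, the fission genes and the receptors in each sample, and in the last panel the percent of the receptor sum held by Fundc1, with points for samples and bars for the group mean and SD (n = 3). The ischemia samples of the fusion sum, the fission sum and the Fundc1 share lie under the sham samples, and those of the receptor sum, from 119 to 199 FPKM, overlap them.

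Ratios between members within a sample do not depend on library size. The 4 ratios computed were Mfn1 to Mfn2, Opa1 to Dnm1l, Mff to Fis1 and Bnip3 to Bnip3l, and the groups overlapped for each of them. Mff to Fis1 was 0.656, 0.546 and 0.565 in sham and 0.340, 0.486 and 0.567 in ischemia, a mean difference of -0.37 on the log2 scale (exact permutation test, two-sided, p = 0.3, 0.9 adjusted over the 4 ratios). The mean differences of the other ratios were 0.17 for Mfn1 to Mfn2, 0.18 for Bnip3 to Bnip3l and -0.06 for Opa1 to Dnm1l, with exact permutation p-values of 0.7, 0.7 and 0.9.

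To place the 10 genes in their pathway, 66 other genes of mitochondrial dynamics and mitophagy were examined, of which 61 were tested. Of these, 1 rose and 0 fell past the adjusted threshold, beside 5.18% and 1.53% of all tested genes. At an unadjusted p under 0.05, 2 of the 61 were higher and 10 lower, beside 18.2% and 14.2% of all tested genes. The groups did not overlap for 5 in the higher and 11 in the lower direction, beside 22.0% and 19.1% of all tested genes. The lower counts of the list were thus near the share over all genes and the higher counts under it. The log2 fold change was below 0 for 44 of the 61, with a median of -0.22 and a range from -1.82 to 1.58.

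The gene that rose was Pgam5, a phosphatase of the mitochondrial membrane known to act on Fundc1. It measured 12.6, 12.2 and 12.3 FPKM in sham and 32.9, 45.6 and 38.0 FPKM in ischemia, so that the sham samples were nearly equal and every ischemia sample was more than double them. Its log2 fold change was 1.55 ± 0.18 with an adjusted p of 0.0272. The call on Pgam5 held in 12 of 19 alternative analyses, and its log2 fold change lay between 1.36 and 1.65 over all 19. The call was lost in the other 7. It was lost without sham replicate 1, 2 or 3, without ischemia replicate 3, with an atrial covariate and with a replicate block. In these fits edgeR called 0 of all tested genes. It was also lost without sham replicates 1 and 3, which leaves 1 sham sample. Pgam5 was listed with the Pink1-Parkin group, in which the median of 15 tested genes was -0.08. With 1 sample left out this median ranged from -0.19 without ischemia replicate 1 to -0.006 without sham replicate 2. The lowest gene of the group was Mul1, a ubiquitin ligase that acts on mitofusins, at -1.01 ± 0.34 with an adjusted p of 0.105.

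Of the partners of fusion, all 4 tested were below 0, from Pld6 at -0.22 to Miga2 at -0.97 ± 0.38, the latter with an adjusted p of 0.136. The sign of Pld6 rested on sham replicate 2, without which it was at 0.90, and it was also above 0 in the limma fits on log2 FPKM and with a replicate block. The 8 inner membrane proteases and scaffolds, several of which process Opa1, had a median of 0.0038, between Spg7 at -0.51 and Yme1l1, a protease that cleaves Opa1, at 0.73. With 1 sample left out this median ranged from -0.13 without sham replicate 1 to 0.32 without sham replicate 2, where 1 of the 8 was below 0. Yme1l1 measured 4.07, 1.41 and 2.63 FPKM in sham and 2.97, 9.34 and 2.0 FPKM in ischemia, and without ischemia replicate 2 it was at -0.12. Spg7 was at -0.16 without sham replicate 2 and at -0.95 without ischemia replicate 1. The 8 tested fission factors spread the widest. Mtfp1, a fission protein of the inner membrane, measured 17.3, 47.0 and 18.3 FPKM in sham and 12.6, 7.06 and 6.67 FPKM in ischemia, at -1.82 ± 0.57 and an adjusted p of 0.0928, and without sham replicate 2, its highest sample, it was at -1.0. Spire1, which nucleates actin at fission sites, lay at the other end at 1.58 ± 0.44 with an adjusted p of 0.0748.

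The MICOS complex holds cristae junctions in place, and its 7 genes were all below 0 with a median of -0.31, none past the adjusted threshold. With 1 sample left out this median ranged from -0.57 without ischemia replicate 1 to -0.24 without ischemia replicate 2. Chchd3 measured 118, 149 and 122 FPKM in sham and 91.6, 68.0 and 87.4 FPKM in ischemia, with separate groups, a log2 fold change of -0.76 ± 0.27 and an adjusted p of 0.118. Chchd6 was the highest of the 7 at -0.10, and was at -0.32 without sham replicate 2. It turned to 0.09 without sham replicate 3, to 0.47 without sham replicates 1 and 3 and to 0.24 with the atrial covariate. In the limma fits Chchd6 lay between 0.02 and 0.03. Among 5 tested adaptors that link ubiquitin to the autophagosome, Optn measured 17.7, 8.57 and 12.6 FPKM in sham and 7.09, 5.37 and 6.10 FPKM in ischemia. Optn missed the threshold at an adjusted p of 0.0510 with a log2 fold change of -1.12 ± 0.25, and Tax1bp1 was the highest adaptor at 0.33. Ischemia replicate 2 carried Tax1bp1, which was at -0.18 without it and at 0.04 without sham replicate 2.

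The 7 other mitophagy receptors were also all below 0, with a median of -0.30, from Nipsnap2 at -0.92 to Ambra1 at -0.19, and none passed the adjusted threshold. With 1 sample left out this median ranged from -0.45 without ischemia replicate 1 to -0.18 without ischemia replicate 2. Nipsnap2 was at -1.42 without ischemia replicate 1, -0.58 without ischemia replicate 2 and -0.59 without sham replicate 2. Ambra1 was at -0.11 without sham replicate 1. Without sham replicate 2, 6 of these 7 receptors and 6 of the 7 MICOS genes were below 0. Of the 7 genes of the autophagosome and of the initiating Ulk1 complex, Ulk1 itself was the lowest at -1.10 ± 0.45 with an adjusted p of 0.152, and Rb1cc1, a partner of Ulk1, was the highest at 0.85 with an adjusted p of 0.235, and at 0.19 without ischemia replicate 2.

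**Figure D4:**
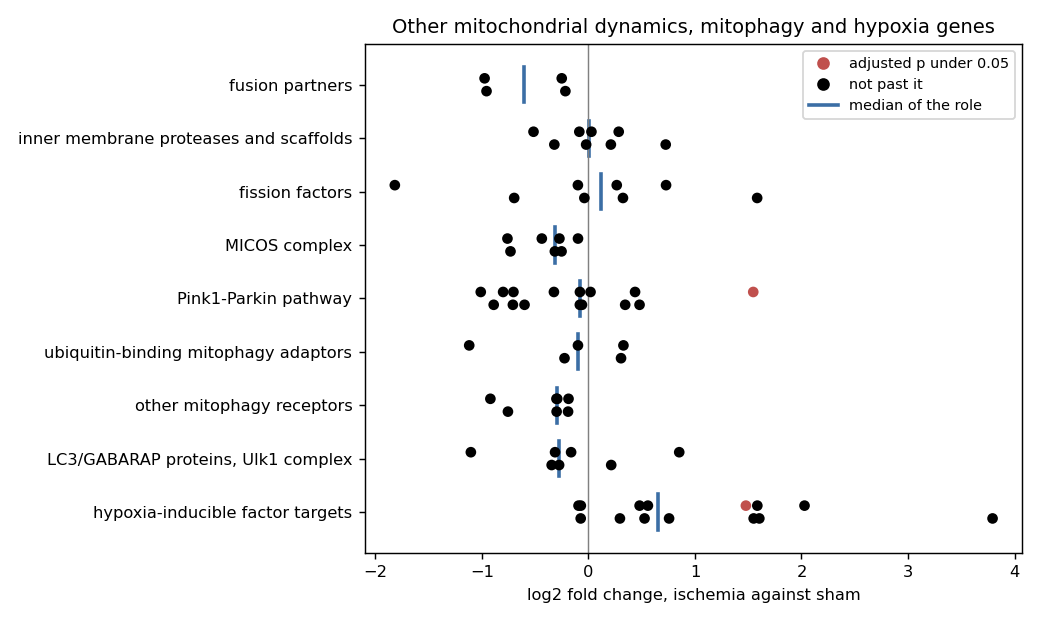
Log2 fold change of ischemia against sham for the tested pathway genes and hypoxia-inducible factor targets, grouped by role, with 1 point per gene and a blue line at the median. The fusion partners, the MICOS complex and the other receptors lie below 0 for every tested gene in this fit. Some genes of each of these roles, Pld6 and Chchd6 among them, turn above 0 in other fits. The red points past the adjusted threshold are Pgam5 and Ddit4.

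Because Bnip3 is a target of hypoxia-inducible factors, 14 other tested targets were set beside it. Ddit4, an inhibitor of mTOR signaling, rose, as 1 of the 14 beside 5.18% of all tested genes, and 11 of the 14 were above 0 with a median log2 fold change of 0.66. Ddit4 measured 15.2, 13.0 and 16.4 FPKM in sham and 44.9, 59.1 and 29.5 FPKM in ischemia, a log2 fold change of 1.48 ± 0.24 with an adjusted p of 0.0327. The call on Ddit4 was lost in the same 7 alternatives as that on Pgam5, with a log2 fold change between 1.28 and 1.67 over all 19. At an unadjusted p under 0.05, 5 of the 14 were higher and 0 lower, beside 18.2% and 14.2% of all tested genes. Slc2a1, the glucose transporter GLUT1, was the highest at 3.79 ± 1.01 with an adjusted p of 0.0687, and measured 4.15, 5.60 and 5.46 FPKM in sham and 12.4, 197 and 29.9 FPKM in ischemia. As with Bnip3 and Bnip3l, ischemia replicate 2 held its highest value. Without ischemia replicate 2 the log2 fold change of Slc2a1 was 2.01, that of Ndrg1 was 0.43 in place of 1.60, and that of P4ha1 was 0.50 in place of 1.55. The median of the 14 targets was then 0.25, and 2 were higher at an unadjusted p under 0.05. That number was also 2 without sham replicate 1 or 3, and 7 without ischemia replicate 1. Over all tested genes, between 3020 and 5509 had an unadjusted p under 0.05, in either direction, with 1 sample left out. Pdk1 was the lowest target at -0.09. It kept this sign in 12 of 19 alternatives and reached 0.72 in the others. Without sham replicate 2 all 14 targets were above 0.

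Other differences between the samples ran alongside those of the 10 genes. Ischemia replicate 2 was the lowest of the 6 samples for 6 of the 10 genes (Mfn1, Mfn2, Fis1, Mff, Pink1 and Fundc1) and the highest for Bnip3 and Bnip3l. The 7 cardiomyocyte markers in the table, none of them at 0, summed to between 25218 and 31965 FPKM in sham and between 8413 and 16972 FPKM in ischemia, lowest in ischemia replicate 2, and all 7 were below 0, with separate groups for 4, beside 19.1% of all tested genes in that direction. The 8 neutrophil and monocyte markers summed to between 103 and 182 FPKM in sham and between 1230 and 8305 FPKM in ischemia, highest in ischemia replicate 2, and 6 of the 7 tested passed the adjusted threshold as higher, beside 5.18% of all tested genes. The 4 atrial markers summed to 48341, 215 and 39203 FPKM in sham and 9610, 2078 and 1279 FPKM in ischemia. Endothelial markers summed to between 135 and 161 FPKM in all samples. The part of these differences in cell markers in the values of the 10 genes was not tested beyond a fit with an atrial covariate, in which Fundc1 was at -1.19 and Mff at -0.93 with adjusted p-values of 0.148 and 0.176. In that fit edgeR called 0 of all tested genes, and 2733 had an unadjusted p under 0.05. Without sham replicates 1 and 3, which carry the high atrial markers, Fundc1 was at -1.19 and Mff at -0.93 with an adjusted p of 0.394 for both, and 0 of all tested genes were called, 1707 of them with an unadjusted p under 0.05. Sham replicate 1 had 161 counts on genes of the Y chromosome beside 3218 to 8970 in the other samples, although all rats are labelled male. Without it Fundc1 was at -1.34 and Mff at -0.89.

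Total counts ranged from 68529126 to 79591989 per sample, of which the 10 genes took between 0.108% and 0.218%. At this depth 3 counts correspond to between 0.0377 and 0.0438 CPM (counts relative to library size), a floor for counting error alone.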

How the data were processed

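The authors deposited 1 table with whole-number read counts and FPKM for each sample. STAR and HTSeq are named in the submitters' processing notes, and versions, counting options, genome build and annotation are not given in the sources used here, so gene positions stand as the table lists them and belong to another build than the GRCr8 promoters. The deposited FPKM values were fragment counts scaled by the authors to gene length and library size, and for 99.97% of 11233 well-covered genes, including all 10 genes, the ratio of count to FPKM, taken relative to its mean over the samples for each gene, followed 1 factor per sample within 1%. Reads shared by near-identical copies could have been lost or split.

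Genes whose mean FPKM reached 0.5 were tested with edgeR's quasi-likelihood test on the deposited counts, after scaling by the trimmed mean of M-values (TMM), ischemia against sham without covariates. Two-sided p-values received Benjamini-Hochberg adjustment across the 13964 genes, at a threshold of 0.05. The SE was derived from the F statistic. Overlap of groups was judged on TMM-scaled CPM. Single values were compared by exact permutation tests. The members and lists were chosen with earlier results of these data known. All 10 genes are named, and of the pathway and hypoxia lists each gene past the adjusted threshold and the highest and lowest of each role. Ndrg1 and P4ha1 were named after their values were seen. Of the 66 pathway genes 3 had no row in the table. Fibroblast, smooth muscle, erythroid and epicardial markers were also summed, and their sham and ischemia ranges in FPKM were 302 to 979 and 167 to 408, 113 to 839 and 50.5 to 221, 3233 to 5792 and 3758 to 7495, and 36.5 to 77.4 and 4.83 to 27.8. The alternatives were DESeq2, limma on log2(FPKM + pseudocount), other filters and scalings, removal of the mitochondrial genome, a replicate block, an atrial covariate and each sample left out, and the fit without sham replicates 1 and 3 was chosen after seeing the data. Software was Python 3.11.15 with scipy 1.17.1 and matplotlib 3.10.9, and DESeq2 1.42.0, limma 3.58.1 and edgeR 4.0.16 in R 4.3.3.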

Additional observations from a re-analysis of the deposited data

How the results depend on the processing

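Over 19 alternatives, 2 of the 190 log2 fold changes of the 10 genes changed sign: Dnm1l to 0.11 without sham replicates 1 and 3, and Bnip3l to -0.40 without ischemia replicate 2 (its range with 1 sample left out was -0.40 to 0.44). Fundc1 ranged from -1.67 to -1.19 and Mff from -1.07 to -0.77, and Fundc1 passed the adjusted threshold in 10 and Mff in 4 of the 19. The number of the 10 called lower, 2 in the edgeR fit, was 3 with DESeq2, 1 with limma at a pseudocount of 1 or 0.01, 1 with upper-quartile scaling or without the mitochondrial genome, 0 without an expression filter, with total-count scaling, with the atrial covariate or without sham replicates 1 and 3, and between 0 and 1 with 1 sample left out. At an unadjusted p under 0.05, between 3 and 6 were lower and 0 higher. Over all tested genes, the number at that p in either direction ran from 2733 to 5389 in the alternatives with all 6 samples. With 1 sample left out it ran from 3020 to 5509. Calls over all tested genes ran from 0 to 2071 higher and from 0 to 1742 lower in the alternatives with all 6 samples. The pathway list, 1 higher and 0 lower, gave 3 higher and 8 lower with DESeq2, 2 lower at a mean FPKM of at least 5, 1 lower with median-ratio scaling, 0 higher with the atrial covariate or without sham replicates 1 and 3, and between 0 and 2 higher and 0 and 4 lower with 1 sample left out. The median of the 10 genes, -0.55, was -0.85 without sham replicates 1 and 3 and between -0.76 and -0.50 with 1 sample left out. With 1 sample left out, the log2 ratio differences ranged from -0.15 to 0.50 for Bnip3 to Bnip3l, from -0.53 to -0.16 for Mff to Fis1, from -0.07 to 0.41 for Mfn1 to Mfn2 and from -0.38 to 0.33 for Opa1 to Dnm1l. Over all tested genes, 723 higher and 214 lower became 2071 and 1742 with DESeq2, 509 and 83 with total-count scaling and 493 and 93 without a filter, between 0 and 1490 and between 0 and 1115 with 1 sample left out, 0 and 0 with the atrial covariate, where 2733 had an unadjusted p under 0.05, and 0 and 0 without sham replicates 1 and 3, where 1707 had an unadjusted p under 0.05. The cause of these differences was not tested. Without sham replicates 1 and 3 the lone sham sample is assumed to vary like the ischemia samples.

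With a replicate block in the model, 0 of the 10 genes and 0 of the pathway genes were called, and 0 higher and 0 lower over all genes by edgeR, where 3349 had an unadjusted p under 0.05. Same-numbered samples correlated at -0.05, -0.08 and -0.19 in their deviations from the group means, and differently numbered ones at a mean of 0.05. With 3 samples per group, these values cannot settle whether samples were matched by number, and the labels do not say.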
